A study of Homo sapiens with 9 samples.

Results

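A set of 10 genes of the NF-kB system were followed in HaCaT cells, a spontaneously immortalised line of human keratinocytes. They were taken by symbol from the deposited gene table, where all 10 were found among 21170 features, and all 10 had enough counts to be tested. Poly(A) RNA had been sequenced from 9 libraries in 3 groups of 3: cells made to overexpress wild-type FTO (FTO), cells made to overexpress an FTO mutant whose demethylase activity is disrupted (mut-FTO), and cells that received the empty vector (Vector). FTO removes methyl groups from adenosines in RNA. The sources used here give neither the promoter of the constructs, nor the mutated residue, nor whether a group was 1 clone, and they do not say that libraries came from separate cultures. The p-values therefore measure the spread between these libraries, which may be technical.

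NF-kB is a family of dimeric transcription factors that carry signals from cytokine and innate immune receptors to the nucleus. In resting cells an inhibitor of the IkB family holds the dimer in the cytoplasm; kinases of the IKK complex mark the inhibitor for destruction, and the freed dimer enters the nucleus. Among the first genes it switches on are its own inhibitors, so that the response is limited by feedback. In keratinocytes the system is best known for inflammatory gene expression in psoriasis. NFKB1, NFKB2, RELA and RELB encode DNA-binding subunits. NFKBIA encodes IkB alpha, the classical inhibitor, and NFKBIZ encodes IkB zeta, a nuclear member of the inhibitor family that helps drive IL-17 and IL-36 responses in keratinocytes. TNFAIP3 encodes A20, a ubiquitin-editing enzyme that damps the signal upstream of IKK. TNFAIP2, BIRC3 and ICAM1 are TNF-inducible genes, of which BIRC3 encodes the ubiquitin ligase cIAP2 and ICAM1 a ligand of leukocyte integrins.

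RefSeq promoter windows (GRCh38.p14, 250 bases before to 50 after a transcript start) were matched by symbol to 9 of the 10 genes, all but RELB, in 14 windows. The windows of the genes that changed most, NFKBIA and TNFAIP2, are shown beside those of the feedback gene TNFAIP3 and of BIRC3, whose level hung on 1 library. Capitals mark matches to the kappaB consensus GGGRNWYYCC, searched on both strands, with overlapping matches counted separately. Here R is A or G, N any base, W A or T, and Y C or T. NFKBIA lies at chr14:35404700-35404999 on the minus strand, TNFAIP2 at chr14:103123211-103123510, TNFAIP3 at chr6:137867009-137867308 and BIRC3 at chr11:102317234-102317533 on the plus strand.
NFKBIA: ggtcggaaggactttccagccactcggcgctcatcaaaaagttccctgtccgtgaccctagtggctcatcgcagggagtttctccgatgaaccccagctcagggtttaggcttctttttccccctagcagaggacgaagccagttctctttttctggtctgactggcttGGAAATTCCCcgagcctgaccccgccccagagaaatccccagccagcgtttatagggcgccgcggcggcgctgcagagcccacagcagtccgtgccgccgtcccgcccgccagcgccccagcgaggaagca
TNFAIP2: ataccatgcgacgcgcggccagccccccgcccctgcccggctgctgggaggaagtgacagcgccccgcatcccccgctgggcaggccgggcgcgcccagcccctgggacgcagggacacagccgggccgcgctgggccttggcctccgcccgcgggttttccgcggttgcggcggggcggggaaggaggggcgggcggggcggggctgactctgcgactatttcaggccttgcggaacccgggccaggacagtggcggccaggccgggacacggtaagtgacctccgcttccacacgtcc
TNFAIP3: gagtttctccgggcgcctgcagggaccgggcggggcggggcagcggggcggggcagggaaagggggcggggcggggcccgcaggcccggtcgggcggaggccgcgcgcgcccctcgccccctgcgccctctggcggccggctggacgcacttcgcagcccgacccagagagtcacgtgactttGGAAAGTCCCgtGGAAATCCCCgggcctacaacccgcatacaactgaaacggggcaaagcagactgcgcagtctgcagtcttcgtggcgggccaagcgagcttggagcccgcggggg
BIRC3: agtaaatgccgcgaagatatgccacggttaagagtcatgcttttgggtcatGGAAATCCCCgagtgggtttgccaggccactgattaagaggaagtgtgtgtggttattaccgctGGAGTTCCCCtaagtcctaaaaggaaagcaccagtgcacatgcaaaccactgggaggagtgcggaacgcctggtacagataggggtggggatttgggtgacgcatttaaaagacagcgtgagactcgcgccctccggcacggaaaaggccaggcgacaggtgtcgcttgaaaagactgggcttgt

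NFKBIA held 1 match, which began 81 bases before the transcript start. TNFAIP3 held 2, which began 67 and 55 bases before it, and BIRC3 held 2, at 199 and 135 bases before it. TNFAIP2 held none, and these letters were also not found in the windows of RELA and ICAM1. Sites that depart from the consensus letters were not marked, so a window without a match need not lack a kappaB site. In all, 6 of 9 matched genes (66.7%) had a match in at least 1 window, against 7.09% of the 27305 genes with a window. Counted by window, the shares were 57.1% of 14 and 5.91% of 35116. The genes were listed as members of the NF-kB system, feedback targets among them, so these shares are no test of the list. A match describes the letters of the window and is not evidence of binding. Of the 2 genes whose RNA changed, NFKBIA carried the match and TNFAIP2 did not.

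Libraries held 32222203 to 37846027 counts. Levels below are CPM, the counts scaled to a common library total, with the total adjusted by TMM, and changes are log2 fold changes with standard errors (SE). A gene was called changed at an adjusted p below 0.05 in edgeR's quasi-likelihood test, with Benjamini-Hochberg adjustment over 13713 tested genes. FTO RNA checked the groups: it stood at 69.8 ± 7.22 CPM in FTO and 65.5 ± 16.5 in mut-FTO, against 20.4 ± 4.75 in Vector (SD, n = 3 each), so it does not tell the 2 constructs apart. Their columns were told apart by the letters of the column names alone. Vector replicate 3 stood apart, with 14.97% of its counts in mitochondrially encoded genes, as against 3.81% to 7.45% in the other 8 libraries. Assembled loci without a gene name took 3.169% of mut-FTO replicate 2 and 2.498% of Vector replicate 3, and at most 0.875% elsewhere. Keratinocyte identity was present in every group, with all 13 markers counted and a summed level of 18300 to 18900 CPM in FTO, 22800 to 28800 in mut-FTO and 16300 to 19200 in Vector. Fibroblast markers summed to 5.26 to 9.90 CPM, melanocyte markers to 0.935 to 2.65 and endothelial markers to at most 1.99. The leukocyte list summed to 66.5 to 74.4 CPM in FTO, 69.5 to 110.0 in mut-FTO and 67.6 to 90.6 in Vector, with CD3D, MS4A1 and NKG7 among those at 0 in all 9 libraries. In bulk RNA, fewer cells of a type and less RNA per cell cannot be told apart.

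TNFAIP2 and NFKBIA rose in mut-FTO against Vector, and the 4 subunit genes did not pass the test in any comparison. In mut-FTO against Vector, 2 of 10 members were called higher and 0 lower by edgeR, as by DESeq2 and limma-voom, and the same 2 had an unadjusted p below 0.05. Of all tested genes 7.78% were called by edgeR, 3.27% higher and 4.51% lower, with 12.3% by DESeq2 and 7.69% by limma-voom. Those 2 were also the only members whose mut-FTO and Vector libraries did not overlap, as was so for 24.0% of all tested genes. In FTO against Vector no member was called by edgeR, DESeq2 or limma-voom and 1, ICAM1, had an unadjusted p below 0.05, where 0.744% of all tested genes were called, 0.306% higher and 0.438% lower. In FTO against mut-FTO the same 2 members, TNFAIP2 and NFKBIA, were called lower, where 2.33% of all genes were called, 1.20% higher and 1.13% lower. Of 13713 tested genes, 2899 had an unadjusted p below 0.05 in mut-FTO against Vector by edgeR. The number was 1631 in FTO against Vector and 1918 in FTO against mut-FTO. The comparisons share libraries in pairs, so they are not independent of each other. The members' median log2 fold change was 0.00080 in mut-FTO against Vector and 0.077 in FTO against Vector, beside −0.0012 and −0.0020 over all tested genes.

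**Figure D1:**
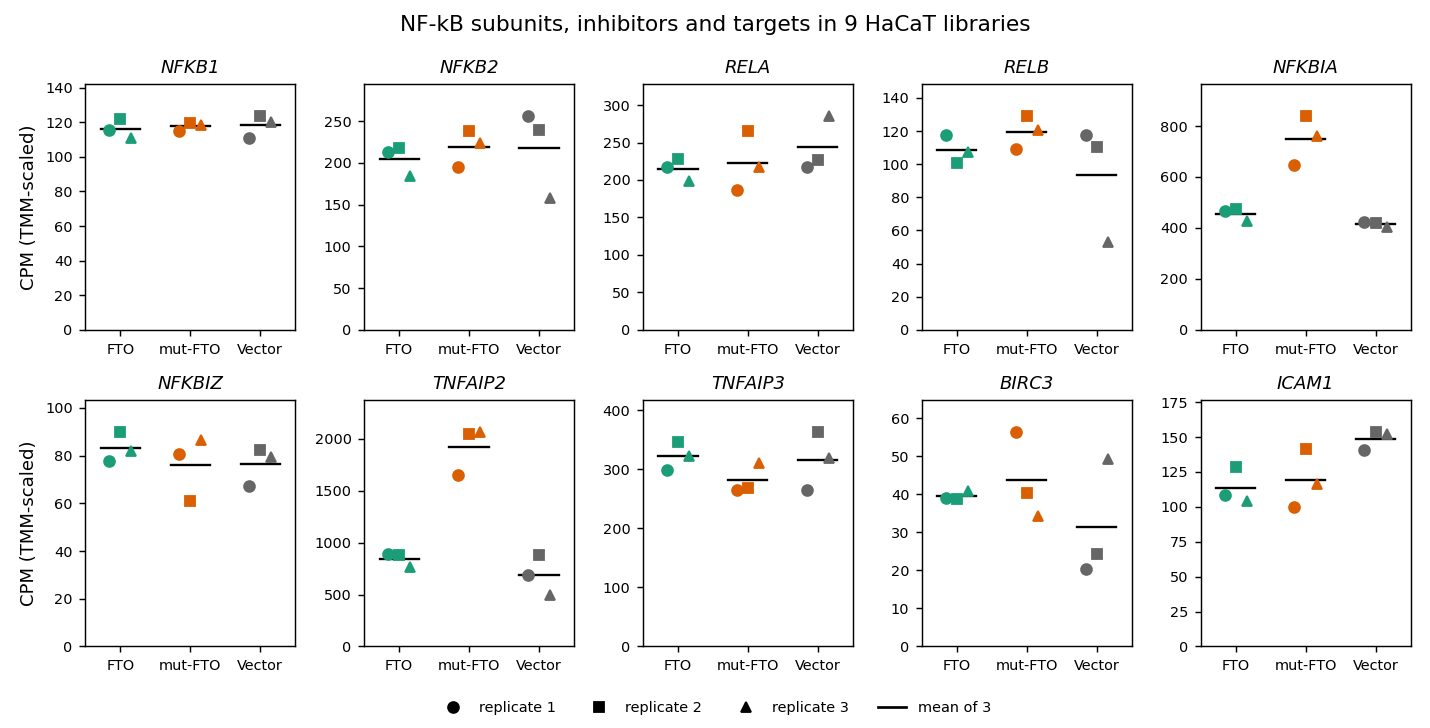
Level of each gene in CPM (vertical axis, from 0) in the 3 FTO, 3 mut-FTO and 3 Vector libraries; symbols give the replicate number and bars the mean of 3. TNFAIP2 and NFKBIA stand higher in every mut-FTO library than in any other, and Vector replicate 3 is the lowest library for RELB and NFKB2.

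The subunit genes passed in no comparison, and NFKB1 had the smallest spread among them. NFKB1, which encodes the p105 precursor of p50, ranged from 111 to 122 CPM in FTO, 115 to 119 in mut-FTO and 111 to 124 in Vector, and the groups overlapped throughout. Its log2 fold change was −0.029 in FTO (95% interval −0.32 to 0.26) and −0.0075 in mut-FTO (−0.30 to 0.28), each against Vector, the narrowest intervals of the 10 genes. RELA, encoding p65, the main activating subunit of the classical dimer, stood at 214.5 ± 15.1 CPM in FTO, 223 ± 40.0 in mut-FTO and 243 ± 36.9 in Vector. Its intervals against Vector ran from −0.56 to 0.19 in FTO and from −0.50 to 0.25 in mut-FTO.

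The subunits of the alternative branch, which answers to lymphotoxin and CD40 signals, varied most within Vector. RELB reached 118, 100.5 and 107 CPM in FTO, 109, 129 and 121 in mut-FTO, and 117.5, 110.5 and 53.1 in Vector replicates 1, 2 and 3. All libraries but Vector replicate 3 thus lay between 100.5 and 129 CPM. NFKB2, the precursor of p52, reached 213, 217.5 and 185 CPM in FTO, 195, 238 and 224 in mut-FTO, and 257, 239 and 158 in Vector, again with Vector replicate 3 lowest. The log2 fold change of RELB against Vector was 0.21 in FTO (95% interval −0.32 to 0.74) and 0.35 in mut-FTO (−0.18 to 0.88), the widest intervals among the subunits. That library also held the large mitochondrial share given above, whose part in these low values was not tested.

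Levels of different genes were set side by side only per kilobase of the longest annotated coding transcript (GENCODE 29), which need not be the one these cells make. On this scale RELA led the subunits in Vector with 76.5 ± 11.6 CPM per kb, followed by NFKB2 with 63.8 ± 15.4, RELB with 40.9 ± 15.4 and NFKB1 with 28.9 ± 1.64. The ranges of mean ± SD overlapped for RELA and NFKB2, for NFKB2 and RELB, and for RELB and NFKB1. The genes were measured in the same libraries, so these SDs do not test a difference between them. In FTO the order was the same, with 67.4 ± 4.76, 60.0 ± 5.14, 47.3 ± 3.77 and 28.4 ± 1.34 CPM per kb. In mut-FTO it was again the same, with 70.0 ± 12.6, 64.1 ± 6.48, 52.1 ± 4.38 and 28.8 ± 0.609. NFKBIA stood above all 4 subunits in each group, at 293 ± 16.4, 481 ± 62.9 and 268 ± 6.88 CPM per kb in FTO, mut-FTO and Vector. BIRC3 was the lowest of the 10, at 7.61 ± 0.235, 8.41 ± 2.18 and 6.04 ± 3.01 CPM per kb in the same groups.

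The inhibitor gene NFKBIA rose 1.796-fold in mut-FTO. It measured 466, 476 and 427 CPM in FTO, 645.5, 840.3 and 761 in mut-FTO, and 425, 421 and 405 in Vector. Every mut-FTO library lay above every other library, while FTO and Vector were close. The log2 fold change was 0.84 in mut-FTO against Vector (SE 0.15; 95% interval 0.51 to 1.18; edgeR adjusted p = 0.00434). In FTO against Vector it was 0.13 (SE 0.15; interval −0.20 to 0.46; edgeR adjusted p = 0.762), although all 3 FTO libraries lay above all 3 Vector libraries. Such a separation, in either direction, was seen for 21.0% of tested genes. The constructs differed by −0.71 in FTO against mut-FTO (SE 0.15; edgeR adjusted p = 0.0290). A ratio within a library is free of its scaling: NFKBIA gave 2.15, 2.08 and 2.16 counts per RELA count in FTO, 3.47, 3.17 and 3.51 in mut-FTO, and 1.95, 1.86 and 1.42 in Vector.

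TNFAIP2 showed the largest change of the 10. First described as a TNF-inducible gene of endothelial cells, it encodes a protein involved in membrane protrusions. It measured 889, 879.6 and 769 CPM in FTO, 1646, 2041 and 2061 in mut-FTO, and 686, 879 and 492 in Vector. The mut-FTO libraries again lay above all others, whereas FTO and Vector overlapped. TNFAIP2 rose 2.79-fold in mut-FTO against Vector, a log2 change of 1.48 (SE 0.21; 95% interval 1.02 to 1.94; edgeR adjusted p = 0.000911). The log2 value for FTO against Vector was 0.30 (SE 0.21; interval −0.15 to 0.75; edgeR adjusted p = 0.594), and for FTO against mut-FTO it was −1.18 (SE 0.21; edgeR adjusted p = 0.0118). TNFAIP2 counts per NFKBIA count were 1.91, 1.85 and 1.8 in FTO, 2.55, 2.43 and 2.71 in mut-FTO, and 1.61, 2.09 and 1.22 in Vector.

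Both rises in mut-FTO against Vector passed with any of the 9 libraries left out, with log2 fold changes of 0.76 to 0.94 for NFKBIA (edgeR adjusted p = 0.000300 to 0.0265) and 1.28 to 1.70 for TNFAIP2 (1.03e-05 to 0.00850). The difference between the constructs was less firm. In FTO against mut-FTO the NFKBIA call was lost without any FTO library, mut-FTO replicate 2 or 3, or Vector replicate 2 (edgeR adjusted p = 0.0545 to 0.150), at log2 values of −0.63 to −0.74. The TNFAIP2 call was lost without any FTO library or mut-FTO replicate 2 or 3 (edgeR adjusted p = 0.0634 to 0.0762), at −1.12 to −1.22. The keratinocyte markers KRT5, KRT14 and KRT15 and the monocyte marker CD14, which keratinocytes can also express, were higher in mut-FTO than in Vector too (edgeR adjusted p = 0.0468, 0.00876, 0.000911 and 0.00600). The other 10 of 13 keratinocyte markers did not pass, 2 of the 13 were lower at an unadjusted p below 0.05, and the median log2 fold change of the list was 0.060. On the leukocyte list 3 of the 4 tested genes did not pass, CD68 among them with 58.6 CPM in mut-FTO against 61.9 in Vector. At an unadjusted p below 0.05, 2 of these 4 were higher and 0 lower, and the list median was 0.47. The part of these markers in the rises was not tested.

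**Figure D2:**
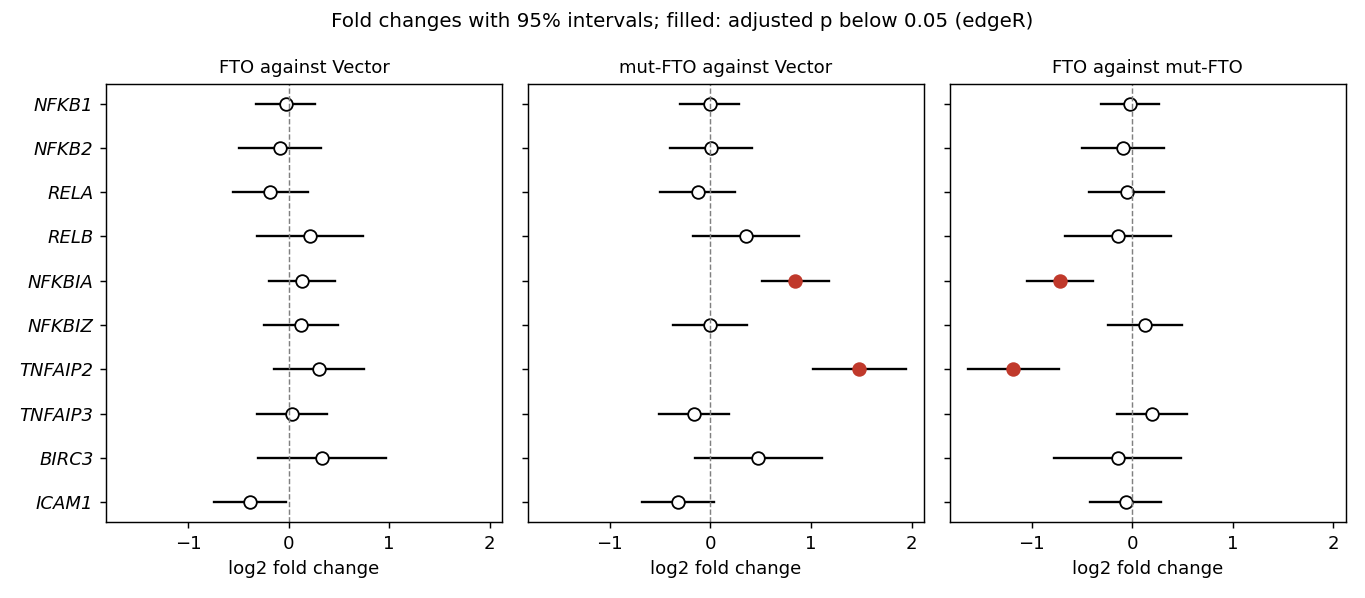
Log2 fold change (horizontal axis) with 95% interval for each gene, with either construct set against Vector and FTO set against mut-FTO; filled points passed an adjusted p below 0.05. NFKBIA and TNFAIP2 are filled in both comparisons that involve mut-FTO, at 0.84 and 1.48 against Vector, and no gene is filled in FTO against Vector.

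The other feedback genes did not pass in any comparison. TNFAIP3 measured 299 to 347 CPM in FTO, 265 to 311 in mut-FTO and 265.5 to 363 in Vector, so that Vector spanned nearly the whole range. Set against Vector, the log2 value of TNFAIP3 was 0.030 in FTO (95% interval −0.32 to 0.38) and −0.17 in mut-FTO (−0.51 to 0.18). The mut-FTO interval of TNFAIP3 ended below the 0.51 at which that of NFKBIA began. NFKBIZ measured 77.7 to 89.8 CPM in FTO, 61.0 to 86.4 in mut-FTO and 67.3 to 82.2 in Vector, with log2 fold changes against Vector of 0.12 in FTO (−0.24 to 0.49) and −0.0056 in mut-FTO (−0.37 to 0.36). TNFAIP3 carries 95 exon bases (1.88%) that GENCODE 29 also gives to an antisense transcript, and the sources used here do not give the strand setting of the counting.

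BIRC3 depended on Vector replicate 3. It measured 38.9, 38.7 and 40.9 CPM in FTO, 56.3, 40.4 and 34.4 in mut-FTO, and 20.5, 24.4 and 49.3 in Vector. Vector replicates 1 and 2 were the lowest of the 9 libraries and Vector replicate 3 the second highest. With all libraries the log2 fold change was 0.33 in FTO (SE 0.29; edgeR adjusted p = 0.685) and 0.48 in mut-FTO (SE 0.29; edgeR adjusted p = 0.388) against Vector. Without Vector replicate 3 it was 0.79 in FTO (edgeR adjusted p = 0.0247) and 0.96 in mut-FTO (edgeR adjusted p = 0.00191), both called. With that library left out, the member counts became 1 higher in FTO and 3 higher in mut-FTO against Vector, while the share of all tested genes called became 3.41% in FTO and 15% in mut-FTO.

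ICAM1 was lower in both construct groups by point estimate, without passing. It measured 108, 129 and 104 CPM in FTO, 99.8, 141 and 116 in mut-FTO, and 140.5, 153 and 152 in Vector. All 3 FTO libraries lay below all 3 Vector libraries, and mut-FTO replicate 2 overlapped with Vector replicate 1. FTO and Vector libraries did not overlap, in either direction, for 21.0% of all tested genes. The log2 fold change was −0.39 in FTO (SE 0.16; 95% interval −0.74 to −0.030; edgeR adjusted p = 0.382) and −0.32 in mut-FTO (SE 0.16; interval −0.68 to 0.036; edgeR adjusted p = 0.287), each against Vector. With Vector replicate 3 and mut-FTO replicate 2 both left out it was called in FTO at −0.38 (edgeR adjusted p = 0.0475) and in mut-FTO at −0.47 (edgeR adjusted p = 0.0134). Of the exon bases of ICAM1, 815 (22%) are shared with an antisense gene in GENCODE 29, and without a known strand setting its counts cannot be told from those of that gene. Vector had the highest mean for ICAM1 and the lowest for BIRC3 (31.4 CPM, against 39.5 in FTO and 43.7 in mut-FTO). BIRC3 was called only in fits without Vector replicate 3. Whether the changes of ICAM1 and BIRC3 differ was not tested.

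**Figure D3:**
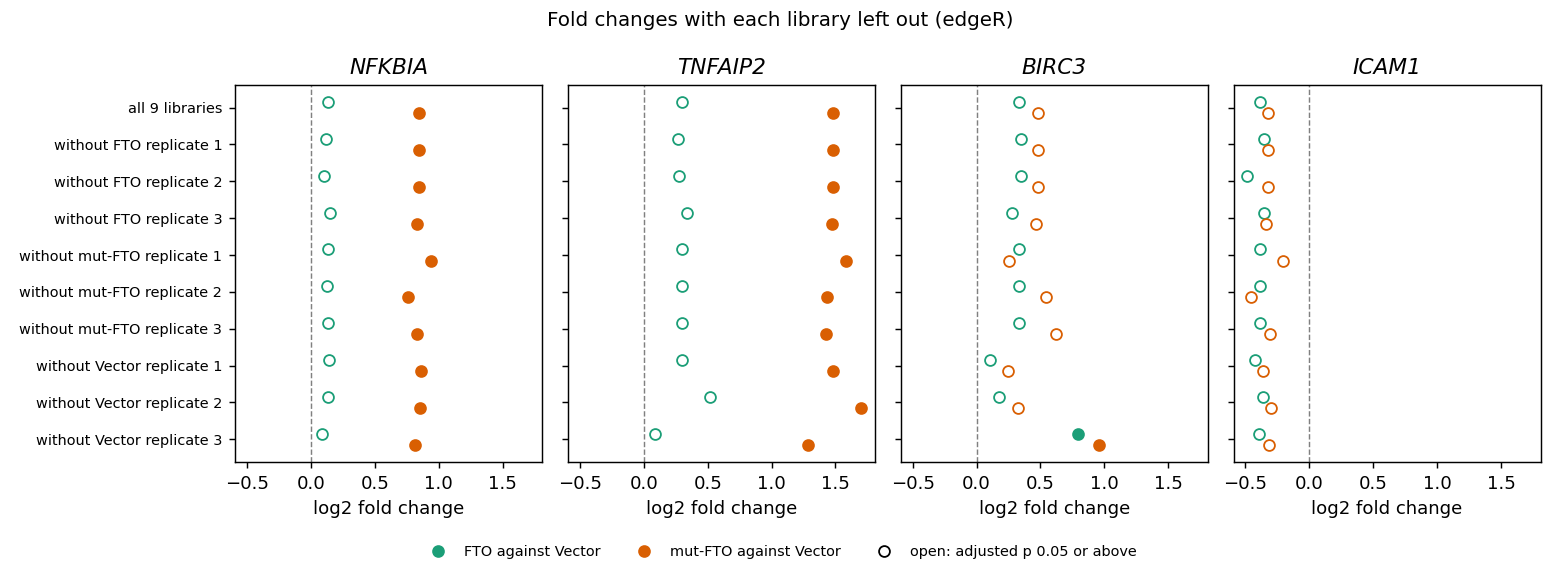
Log2 fold change (horizontal axis) of NFKBIA, TNFAIP2, BIRC3 and ICAM1 against Vector with all 9 libraries and with each left out, for FTO and mut-FTO; filled points have an adjusted p below 0.05. NFKBIA and TNFAIP2 stay filled in mut-FTO in all 10 fits, BIRC3 is filled only without Vector replicate 3, and ICAM1 is open in all.

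Profiles over the 9 libraries were compared by the mean absolute difference between log2 CPM values, each gene centred on its own mean. Among the members the closest were NFKBIZ and TNFAIP3 (0.092), followed by RELA and ICAM1 (0.11) and NFKB1 and TNFAIP3 (0.11). Over all tested genes with a name, the profiles nearest to that of TNFAIP2 were PRODH (0.078), ANKK1 (0.12), WNT10A (0.125), GATSL3 (0.13) and RHOV (0.13). PRODH encodes proline dehydrogenase and WNT10A a Wnt ligand of skin appendages. Their log2 fold changes in mut-FTO against Vector were 1.36 for PRODH, 1.53 for ANKK1, 1.22 for WNT10A, 1.51 for GATSL3 and 1.36 for RHOV, beside 0.16, 0.24, 0.18, 0.45 and 0.35 in FTO against Vector. The 5 genes were picked for closeness over the same 9 libraries, so fold changes near those of TNFAIP2 follow from the choice. NFKBIA was not among these 5.

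The rest of the pathway was read from 5 lists of ligands, receptors, kinases and adaptors, further subunits and inhibitors, and further target genes. Of 10 tested ligand genes 3 fell in mut-FTO against Vector, 1 fell in FTO against Vector and 0 rose in either by edgeR. Of all tested genes, 4.51% were called lower and 3.27% higher in mut-FTO against Vector. In FTO against Vector these shares were 0.438% and 0.306%. At an unadjusted p below 0.05, 2 ligands were higher and 3 lower in mut-FTO against Vector, where 2899 of 13713 tested genes were below it. In FTO against Vector, 1 was higher and 3 lower, where 1631 genes were below it. Of the higher ligands DESeq2 called 1, TNFSF15, in each comparison, where limma-voom called 0. DESeq2 called 12.3% of all tested genes in mut-FTO and 2.72% in FTO. TNFSF15 was low, at 1.9 CPM in FTO, 1.82 in mut-FTO and 0.369 in Vector. IL1B, the cytokine interleukin 1 beta that activates NF-kB and is also a target of it, stood at 216 ± 23.0 CPM in FTO, 46.9 ± 4.58 in mut-FTO and 409 ± 33.5 in Vector. It fell 8.73-fold in mut-FTO (edgeR adjusted p = 4.79e-07) and 1.89-fold in FTO (edgeR adjusted p = 0.0150, lost without any FTO library at 0.0583 to 0.147), and FTO exceeded mut-FTO 4.61-fold (edgeR adjusted p = 7.81e-05).

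IL1A, the alarmin interleukin 1 alpha, measured 120, 135 and 155 CPM in FTO, 38.8, 27.2 and 24.4 in mut-FTO, and 174, 194 and 384 in Vector. The 3 groups did not overlap, and mut-FTO was lowest. IL1A fell 8.31-fold in mut-FTO against Vector (edgeR adjusted p = 7.05e-05), and FTO exceeded mut-FTO 4.53-fold (edgeR adjusted p = 0.00229). TNFSF12, encoding the TNF family ligand TWEAK, stood at 3.01 ± 1.06 CPM in mut-FTO against 7.79 ± 1.98 in Vector (edgeR adjusted p = 0.0161, and 0.0672 without mut-FTO replicate 3). In FTO it stood at 4.49 ± 0.774 CPM and was not called against Vector. Over the ligand list the median log2 value was −0.34 in mut-FTO and −0.31 in FTO, each against Vector. Thus NFKBIA and TNFAIP2 were highest where IL1A and IL1B were lowest.

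None of 17 receptor genes passed in any comparison by edgeR. Of all tested genes 0.744% passed in FTO against Vector, 7.78% in mut-FTO against Vector and 2.33% in FTO against mut-FTO. The receptor counts at an unadjusted p below 0.05 were 0 in FTO against Vector, 1 higher and 2 lower in mut-FTO against Vector, and 2 higher in FTO against mut-FTO. In the same order, 1631, 2899 and 1918 of all 13713 tested genes were below that threshold. DESeq2 called 1 receptor lower in mut-FTO against Vector, TLR2, and limma-voom none, where they called 12.3% and 7.69% of all tested genes. Without Vector replicate 3, edgeR called 3 receptors lower in mut-FTO against Vector and 1 higher in FTO against mut-FTO. That fit called 15% and 10.2% of all tested genes in these comparisons. Of 32 tested kinase and adaptor genes 3 fell and 0 rose in mut-FTO against Vector by edgeR, with 5 lower and 2 higher at an unadjusted p below 0.05. Of all tested genes edgeR called 4.51% lower and 3.27% higher in that comparison. DESeq2 and limma-voom called 3 lower there too, and both called CARD14, an adaptor of keratinocyte NF-kB signalling, higher (log2 value 0.95, edgeR adjusted p = 0.0538). In either direction, DESeq2 called 12.3% of all tested genes there and limma-voom 7.69%. In FTO against Vector 0 passed by edgeR or limma-voom and 1, IRAK2, was lower by DESeq2, which called 2.72% of all tested genes there. At an unadjusted p below 0.05, 3 kinase and adaptor genes were lower in FTO against Vector. TAB3, an adaptor of the kinase TAK1, stood at 18.2 ± 2.04 CPM in mut-FTO against 46.8 ± 23.1 in Vector (edgeR adjusted p = 0.0100), a call lost without mut-FTO replicate 2 or 3 (0.0624 and 0.0582). TRAF5, a signal adaptor of TNF receptors, had 6 counts in the 3 mut-FTO libraries and 158 in the 3 Vector libraries, 26.5-fold lower by total counts (exact 95% counting interval 11.9 to 73.3; edgeR adjusted p = 0.00942). In FTO it had 88 counts, 1.92-fold lower than Vector by total counts (counting interval 1.47 to 2.52), without a call. Both counting intervals leave out the spread between libraries. TRAF5 ran from 0.531 to 1.06 CPM in FTO and from 0.789 to 2.54 in Vector, which overlapped, and from 0 to 0.173 in mut-FTO. IRAK2, a kinase of the IL-1 receptor complex, stood at 16.4 ± 2.37 CPM in FTO. In mut-FTO it stood at 15.9 ± 1.75 CPM against 25.1 ± 0.972 in Vector (edgeR adjusted p = 0.0385). That call was lost in 7 of the 9 fits that left out a library, the exceptions being Vector replicates 1 and 3 (adjusted p by edgeR 0.0619 to 0.123).

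The remaining family members resembled the subunits in showing no call with all 9 libraries. None of 13 further subunit and inhibitor genes then passed in any comparison by edgeR, DESeq2 or limma-voom, with 1 at an unadjusted p below 0.05 in each comparison. With Vector replicate 3 and mut-FTO replicate 2 both left out, BCL3 was called lower in FTO against Vector (log2 −0.36, edgeR adjusted p = 0.0430). REL was called higher in mut-FTO against Vector (log2 0.61, edgeR adjusted p = 0.0332). That fit called 7.55% of all tested genes in FTO and 17.3% in mut-FTO against Vector. REL, encoding c-Rel, stood at 16.3 ± 1.28 CPM in FTO, 19.8 ± 1.77 in mut-FTO and 19.2 ± 10.7 in Vector. Of the IkB genes, NFKBIB stood at 25.2 ± 1.99, 29.1 ± 4.56 and 25.0 ± 4.37 CPM in the same groups, and NFKBIE at 14.8 ± 0.104, 17.5 ± 1.79 and 16.2 ± 6.62. Their log2 fold changes in mut-FTO against Vector had 95% intervals of −0.19 to 0.63 for NFKBIB and −0.47 to 0.70 for NFKBIE, beside 0.51 to 1.18 for NFKBIA. BCL3, a nuclear IkB protein that binds p50 and p52, stood at 143 ± 10.1 CPM in FTO, 169 ± 38.0 in mut-FTO and 192 ± 18.3 in Vector, a log2 difference of −0.43 between FTO and Vector (edgeR adjusted p = 0.366).

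Of 39 further target genes tested in mut-FTO against Vector, 9 fell and 1 rose, where 4.51% of all tested genes were lower and 3.27% higher, with a median log2 fold change of −0.26; FTO gave 1 fall and 1 rise against Vector, with a median of −0.080. DESeq2 called 14 targets lower and 2 higher in mut-FTO, and 5 lower and 1 higher in FTO, each against Vector. In the same comparisons limma-voom called 10 lower and 2 higher in mut-FTO and 1 of each in FTO. Of all tested genes DESeq2 called 12.3% in mut-FTO and 2.72% in FTO, and limma-voom 7.69% and 0.685%. PTGS2, encoding the prostaglandin synthase COX-2, stood at 258.5 ± 15.5 CPM in FTO, 88.2 ± 14.0 in mut-FTO and 270.0 ± 67.1 in Vector. It fell 3.06-fold in mut-FTO (edgeR adjusted p = 0.000338) and FTO exceeded mut-FTO 2.93-fold (edgeR adjusted p = 0.00176). CCL2, a monocyte chemokine, fell 2.92-fold to 253 ± 43.2 CPM in mut-FTO against 738 ± 229 in Vector (edgeR adjusted p = 0.000856), and CCL5, a T cell chemokine, fell 4.59-fold (edgeR adjusted p = 0.000685). In FTO, CCL2 stood at 382 ± 4.32 CPM, and CCL5 at 2.08 ± 0.377 against 5.015 ± 1.14 in Vector. DESeq2 called both lower in FTO against Vector (DESeq2 adjusted p = 0.00247 and 0.00358), and edgeR with all 9 libraries did not. MMP9, encoding gelatinase B, fell 5.26-fold in mut-FTO (edgeR adjusted p = 0.00209) and 6.81-fold in FTO (edgeR adjusted p = 0.00569, and 0.0539 without FTO replicate 3). Its level was low throughout, at 0.409 ± 0.135 CPM in FTO, 0.529 ± 0.104 in mut-FTO and 2.805 ± 0.507 in Vector. CXCL8, the neutrophil chemokine, was the gene that rose in FTO, 2.11-fold to 507 ± 22.8 CPM against 240.1 ± 15.6 in Vector (edgeR adjusted p = 0.0404, lost without 6 of the 9 libraries at 0.0871 to 0.228). KLF6, a zinc finger transcription factor, was higher in FTO than in mut-FTO by 2.03-fold (edgeR adjusted p = 0.0114), and lost that call without FTO replicate 2 or 3 or mut-FTO replicate 2 (0.0616 to 0.0737). CXCL1, named after its values were seen as the only target that rose in mut-FTO, reached 381 ± 15.9 CPM against 268.5 ± 15.1 in Vector (edgeR adjusted p = 0.0446, lost without 8 of the 9 libraries at 0.0554 to 0.171, and 0.0519 with RLE size factors). Without Vector replicate 3, 15 targets fell and 2 rose in mut-FTO, and 5 fell and 2 rose in FTO, in a fit that called 15% and 3.41% of all tested genes.

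**Figure D4:**
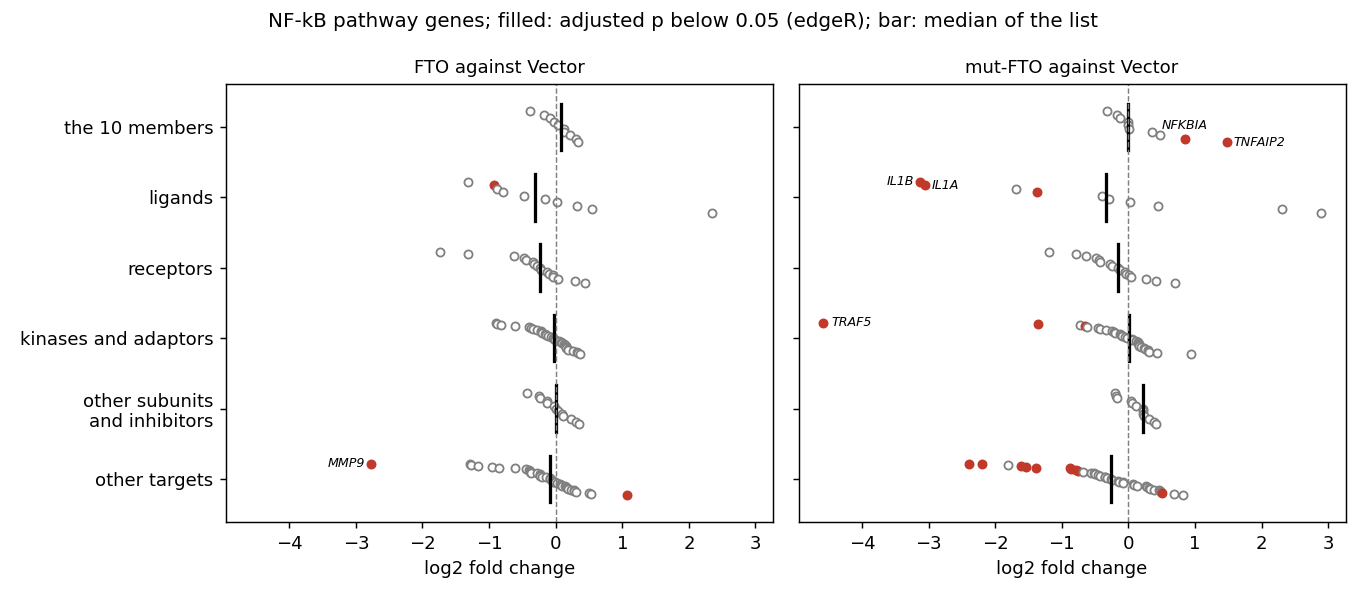
Log2 fold change (horizontal axis) of each tested gene of the 6 lists in FTO against Vector and mut-FTO against Vector; filled points have an adjusted p below 0.05 and bars mark the list median. In mut-FTO the filled points of the 10 members lie to the right of 0 and those of ligands and adaptors to the left, with 9 of the 10 filled targets also to the left.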

How the data were processed

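The authors deposited raw whole-number counts per gene. The submitters' processing notes name HISAT2, StringTie and a mouse build (mm10), although cells and symbols are human. For versions, annotation and strand setting: not given in the sources used here. Columns were matched to samples by letters and numbers in their names, and 0 value columns were left out. Any 2 libraries differed beyond sampling noise (mean chi-square per gene at least 13.1).

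Tests on these counts used edgeR 4.0.16 (R 4.3.3): filterByExpr by group (minimum count 10, minimum total 15), TMM factors, and a robust quasi-likelihood fit of all 9 libraries with a term per group. SE came from the fold change and F statistic, and 95% intervals from the t quantile at the test's degrees of freedom. Log2 CPM used a prior count of 2. The fit was checked on simulated data. Alternatives included DESeq2 1.42.0, limma-voom (limma 3.58.1), other scalings and filters, the replicate number as a block, and left-out libraries. Counting error alone covers the intervals for TRAF5.

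Members, lists and alternatives were chosen with earlier results of these data known. Named were all members, FTO, REL, NFKBIB, NFKBIE and BCL3, up to 4 called genes of lowest p per list and comparison, and the 5 profiles nearest to the member of lowest p in mut-FTO against Vector. CXCL1, TNFSF15, TLR2, CARD14, CD14, CD68 and the keratins were named after their values were seen.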

Additional observations from a re-analysis of the deposited data

How the results depend on the processing

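The rises of NFKBIA and TNFAIP2 in mut-FTO against Vector kept their call under all 19 alternatives. No member called in the fit reported or in an alternative changed direction between them. Uncalled values did change sign, as for NFKB2 in FTO against Vector (log2 −0.30 to 0.047 with 1 library left out). Of 570 member values under alternatives, 552 kept their side of the threshold, 12 lost it and 6 gained it. Without both Vector replicate 3 and mut-FTO replicate 2, the fits called 1 member higher and 1 lower in FTO against Vector, and 3 higher and 1 lower in mut-FTO against Vector, BIRC3 being the higher gene gained in each (log2 0.80 and 0.99; edgeR adjusted p = 0.00873 and 0.00102) and ICAM1 the lower one. All genes called were then 1050 in FTO against Vector, 2401 in mut-FTO against Vector and 1196 in FTO against mut-FTO, beside 102, 1067 and 319 in the fit reported. In the same order DESeq2 called 366, 1680 and 751, and the fits of only the 6 libraries compared called 41, 621 and 1218. With 1 library left out, these counts ran from 27 to 476, from 609 to 2089 and from 71 to 1427, members higher in FTO against Vector from 0 to 1, and members lower in FTO against mut-FTO from 0 to 2. The causes were not tested.

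With the replicate number as a block, 67 genes were called in FTO against Vector and 1 member, TNFAIP2, in FTO against mut-FTO (NFKBIA: edgeR adjusted p = 0.0723). Deviations of libraries with the same number correlated at −0.127 to 0.106, and 4 of 6 libraries in FTO against Vector and 0 of 6 in the other comparisons correlated best with their own number, so the numbers were not taken to pair libraries.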

Other observations

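The balance of alternative to classical subunit RNA was chosen for a look after its values were seen, and is given as values. RELB gave 0.542, 0.44 and 0.541 counts per RELA count in FTO replicates 1, 2 and 3, 0.586, 0.487 and 0.556 in mut-FTO, and 0.539, 0.488 and 0.186 in Vector. NFKB2 gave 1.85, 1.79 and 1.67 counts per NFKB1 count in FTO, 1.7, 2 and 1.89 in mut-FTO, and 2.32, 1.93 and 1.32 in Vector. Vector replicate 3 was lowest of the 9 libraries in both ratios, and Vector replicate 1 was highest in the ratio of NFKB2 to NFKB1. As ratios within a library these values do not depend on its scaling. Vector replicate 3 also held 14.97% of its counts in mitochondrially encoded genes, and the part of that share in the low ratios was not tested.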
